A study of Homo sapiens with 6 samples.

Results

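Chromosome 17 had the highest mean density of acetylated NEIL1 (AcNEIL1) peaks per Mb over the replicates of the HCT116 peak lists, with chromosome 22 close to it and ahead of it in replicate 2. HCT116 is a human colorectal carcinoma cell line, and AcNEIL1 was mapped in exponentially growing cells by chromatin immunoprecipitation and sequencing (ChIP-seq) with a custom rabbit antibody. The series held ChIP libraries of AcNEIL1 in 3 replicates and as many libraries of input DNA taken before immunoprecipitation, with no second condition. Each deposited peak list had been called on 1 ChIP library against the input of the same number. The peaks described here were chosen by chromosome alone: every row on chromosome 17, which gave 3949, 5515 and 5006 peaks in replicates 1, 2 and 3. These were 14470 of 149862 peaks in all, or 9.90%, 9.16% and 10.1% of the lists.

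NEIL1 is a DNA glycosylase that recognises oxidised bases and cuts them out as the first step of base excision repair. Acetylation of lysines is a reversible change to a protein. Chromosome 17 is a small and gene-rich chromosome. It carries the HOXB genes, the acidic keratins with the keratin-associated proteins between them, a chemokine cluster and several families copied in tandem.

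After the duplicate filter there were 31921768, 28814429 and 35222701 ChIP tags in replicates 1, 2 and 3, and the inputs had 32877739, 37772127 and 33606858. Replicate 2 had the fewest ChIP tags, the deepest input and the most peaks. Separate cultures are not stated for the replicates, so p-values describe only these samples, whose spread may be technical. Comparisons were made within each library and tested with an exact sign-flip permutation test over the 3 replicates. With 3 replicates its two-sided p cannot be lower than 0.25, so none of the comparisons below could reach 0.05. It takes that value whenever all 3 log ratios share a sign, whatever their spread.

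Promoter sequences are given as single examples with and without a peak, with the cytosine-guanine pairs (CG) in capitals. Each runs from 250 bases before to 50 bases after a transcription start, read 5′ to 3′ on the gene's strand, and comes from RefSeq in GRCh38.p14. The first 3 are those of the 20 genes with the strongest gene-end peaks whose given promoter lay under a peak in all 3 replicates. They are FAM187A (chr17:44903183-44903482, plus strand), ALOX12B (chr17:8087667-8087966, minus strand), which encodes a lipoxygenase of the skin barrier, and WNT3 (chr17:46818643-46818942, minus strand), which encodes a secreted Wnt ligand. The other two lay under no peak. They are ERBB2 (chr17:39687844-39688143, plus strand), which encodes a receptor tyrosine kinase, and NF1 (chr17:31094727-31095026, plus strand), which encodes neurofibromin, a negative regulator of Ras.

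FAM187A: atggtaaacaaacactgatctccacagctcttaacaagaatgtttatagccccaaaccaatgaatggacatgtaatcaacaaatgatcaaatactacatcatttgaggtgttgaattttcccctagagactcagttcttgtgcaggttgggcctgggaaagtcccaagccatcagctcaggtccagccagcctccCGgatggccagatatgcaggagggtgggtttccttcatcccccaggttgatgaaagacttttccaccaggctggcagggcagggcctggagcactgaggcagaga
ALOX12B: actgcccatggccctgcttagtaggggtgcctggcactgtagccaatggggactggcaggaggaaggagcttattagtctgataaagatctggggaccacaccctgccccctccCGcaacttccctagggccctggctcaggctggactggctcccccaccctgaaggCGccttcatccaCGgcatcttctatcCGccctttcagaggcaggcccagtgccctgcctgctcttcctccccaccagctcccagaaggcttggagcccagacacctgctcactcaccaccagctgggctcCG
WNT3: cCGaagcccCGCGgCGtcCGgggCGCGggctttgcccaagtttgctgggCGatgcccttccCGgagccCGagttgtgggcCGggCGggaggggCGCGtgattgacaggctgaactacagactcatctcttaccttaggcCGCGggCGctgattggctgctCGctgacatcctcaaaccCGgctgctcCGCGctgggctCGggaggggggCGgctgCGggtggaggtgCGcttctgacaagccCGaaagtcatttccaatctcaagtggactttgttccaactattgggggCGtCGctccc
ERBB2: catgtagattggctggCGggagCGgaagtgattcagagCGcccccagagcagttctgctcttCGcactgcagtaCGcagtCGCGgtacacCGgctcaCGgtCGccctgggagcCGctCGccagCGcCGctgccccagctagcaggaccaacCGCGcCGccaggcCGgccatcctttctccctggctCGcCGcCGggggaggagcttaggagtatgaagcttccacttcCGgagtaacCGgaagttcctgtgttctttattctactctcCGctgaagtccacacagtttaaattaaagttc
NF1: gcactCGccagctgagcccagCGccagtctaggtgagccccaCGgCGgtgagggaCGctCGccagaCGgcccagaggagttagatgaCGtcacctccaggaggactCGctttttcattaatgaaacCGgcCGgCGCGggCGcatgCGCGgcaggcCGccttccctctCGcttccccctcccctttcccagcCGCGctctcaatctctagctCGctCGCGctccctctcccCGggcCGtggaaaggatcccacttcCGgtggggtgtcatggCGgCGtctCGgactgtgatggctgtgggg

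The FAM187A promoter held 1 CG and the ALOX12B promoter 5, while WNT3 held 28, ERBB2 24 and NF1 29. Low CG counts were common among promoters under peaks. RefSeq promoter sequences were given for 824 of the 1157 protein-coding genes of the chromosome, 1142 promoters in all. The median CG count was 11.5 in the 38 promoters with a peak in all 3 replicates, 10 in the 38 with one in 2 and 11 in the 62 with one in 1 replicate. The 1004 promoters without any peak had a median of 24, with quartiles of 11 and 34. The share of G and C bases hardly differed, with a median of 62.8% in promoters under a peak in all 3 replicates and 64.0% in those without. The GC box GGGCGG, the binding motif of Sp-family factors, was searched on both strands and occurred in 47.4% of the promoters with a peak in all 3 replicates, 62.1% of those without and 60.4% of all. The TATA motif TATAAA, searched on both strands, occurred in 10.5%, 11.3% and 10.8% of the same groups. Promoters are not replicates and some belong to the same gene, so these values are a description without a test.

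The first comparison set chromosome 17 against the other chromosomes. Counted per occupied bin, a 1 Mb bin with at least one gene or peak, chromosome 17 had 48.8, 68.1 and 61.8 peaks per Mb in replicates 1, 2 and 3. The other chromosomes together had 12.7, 19.3 and 15.8. The ratio was 3.76 ± 0.207 (SD, n = 3), above 1 in 3 of 3 replicates (exact sign-flip permutation p = 0.25, two-sided, the smallest possible). Chromosome 17 ranked first of 23 chromosomes by mean density, with chromosome 22 next to it. Its ratio to chromosome 22 was 1.06, 0.954 and 1.06, so the order of these neighbours depended on the replicate. The ratio was 1.26 ± 0.0803 to chromosome 19 and 1.69 ± 0.00429 to chromosome 16 (SD, n = 3 for each, exact permutation p = 0.25).

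Part of this density went with gene content. Chromosome 17 has 14.3 protein-coding genes per occupied bin and the other chromosomes 6.61. Per protein-coding gene, chromosome 17 had 3.41, 4.77 and 4.33 peaks in replicates 1, 2 and 3, and the other chromosomes 1.92, 2.92 and 2.39. The ratio fell to 1.74 ± 0.0958 on this scale (SD, n = 3, exact permutation p = 0.25). Chromosome 22 then stood above chromosome 17, with a ratio of 17 to 22 of 0.807 ± 0.0478, and chromosome 19, the most gene-dense, stood below it with a ratio of 2.11 ± 0.134 (SD, n = 3 for each, exact permutation p = 0.25).

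**Figure D1:**
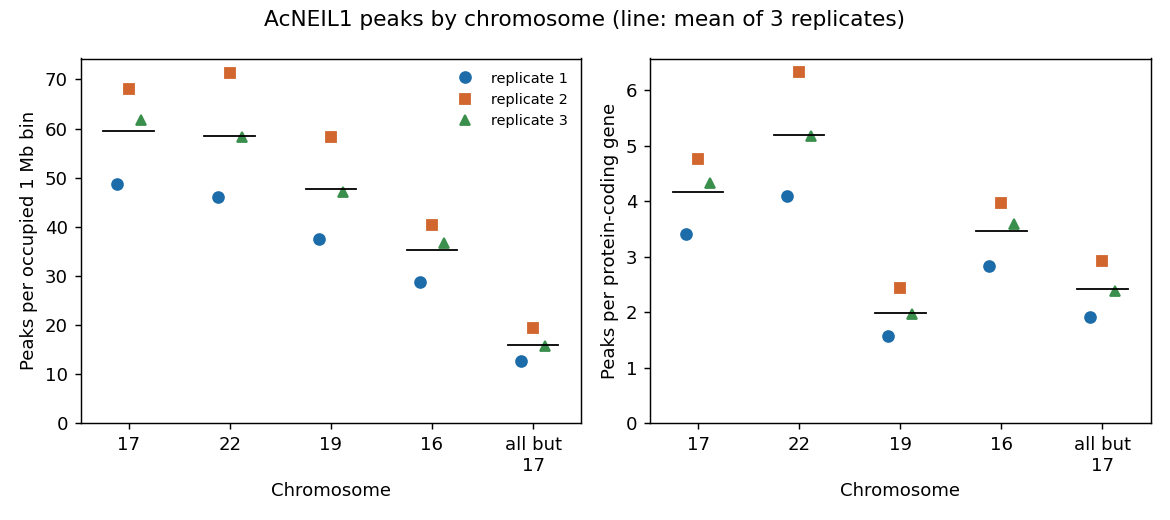
AcNEIL1 peaks per occupied 1 Mb bin (left) and per protein-coding gene (right) on chromosomes 17, 22, 19 and 16 and on all chromosomes but 17; points are the 3 replicates and lines their means. Chromosome 17 is highest with chromosome 22 per bin, at means of 59.5 and 58.6, and is second to chromosome 22 per gene.

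The peaks of chromosome 17 had a lower median fold than those elsewhere, but a higher median pileup. The median pileup was 23, 24 and 21.9 tags on chromosome 17 in replicates 1, 2 and 3, against 20, 21 and 19.1 tags elsewhere. Peaks with −log10 q of 5 or more made up 32.8%, 44.4% and 31.9% of its peaks, against 28.1%, 40.6% and 28.4% elsewhere. The authors' fold enrichment, the pileup over the local background with 1 added to each, had a median of 3.25, 3.25 and 3.43 on chromosome 17 in replicates 1, 2 and 3 and of 3.45, 3.41 and 3.63 on the other chromosomes. The peaks were slightly wider, with medians of 433, 503 and 413 bp on chromosome 17 and 398, 476 and 381 bp elsewhere. The local background at the summits, recovered from the pileup and the fold, was higher on chromosome 17. It had a median of 6.51, 6.82 and 5.73 tags there and of 4.85, 5.34 and 4.31 tags on the other chromosomes. On chromosome 22 the background was 5.20, 5.38 and 4.53 tags, and on chromosome 19 it was 4.94, 5.34 and 4.33 tags, between the values of chromosome 17 and those of the other chromosomes together or, for chromosome 19 in replicate 2, level with them. Chromosome 16 came closer, with a background of 5.98, 6.28 and 5.13 tags and a median fold of 3.32, 3.31 and 3.51. Chromosome 8 had a background of 5.83, 6.504 and 5.23 tags and a median fold of 3.32, 3.23 and 3.43. A higher background with a lower fold was thus not particular to chromosome 17. The part of the background in the density of chromosome 17 was not tested.

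Along the chromosome the 3 libraries rose and fell together. Over the 81 occupied bins, Pearson's r of the peak counts was 0.943, 0.977 and 0.961 for replicates 1 and 2, 1 and 3, and 2 and 3, and Spearman's rho was 0.954, 0.978 and 0.966. Bins are neighbours on 1 chromosome, so these are descriptions. Peak counts followed the number of protein-coding genes in a bin more loosely, with Spearman's rho of 0.673, 0.658 and 0.653 in replicates 1, 2 and 3 and Pearson's r of 0.510, 0.501 and 0.485. The median bin had 45, 65 and 61 peaks, and the 10 fullest bins held 32.7%, 30.4% and 31.9% of the peaks.

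The fullest bin, from 79 to 80 Mb, held 172, 247 and 232 peaks in replicates 1, 2 and 3 and only 9 protein-coding genes. RBFOX3, which encodes the neuronal nuclear protein NeuN, fills much of it, beside CBX2 and CBX8, which encode Polycomb chromodomain proteins. The bin from 81 to 82 Mb held 190, 205 and 187 peaks and 36 genes, among them the kinase gene AATK, the actin gene ACTG1 and the glucagon receptor gene GCGR. A further peak of density lay outside the distal arm, from 50 to 51 Mb, with 178, 178 and 212 peaks. It holds COL1A1, which encodes a chain of type I collagen, and CACNA1G, which encodes a T-type calcium channel. The bin before it, with the homeobox genes DLX3 and DLX4, held 119, 142 and 148. The remaining bins among the 6 fullest, from 78 to 79 Mb and from 74 to 75 Mb, held 131, 181 and 167 peaks and 101, 176 and 157 peaks.

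Dense stretches ended abruptly. The bin from 51 to 52 Mb, next to the 178, 178 and 212 peaks of its neighbour, held 0, 2 and 0 peaks although it has 7 protein-coding genes, among them NME1 and NME2, which encode nucleoside diphosphate kinases. From 51 to 55 Mb there were 0, 2 and 1 peaks in replicates 1, 2 and 3 at 10 protein-coding genes. The longest stretch without a peak in any replicate, apart from the 5.44 Mb around the centromere, ran for 3.51 Mb (chr17:51385293-54899512) and contained CA10 and KIF2B. The next, of 2.64 Mb (chr17:69458499-72101972), contained KCNJ2 and KCNJ16, which encode inwardly rectifying potassium channels, and ended just before SOX9, a transcription factor gene of intestinal crypts. Directly after it, the bin from 72 to 73 Mb held 100, 98 and 147 peaks and 2 protein-coding genes, SOX9 and the long SLC39A11. On the short arm, from 11 to 14 Mb, there were 0, 2 and 5 peaks at 8 genes, among them MAP2K4, a stress kinase gene, and MYOCD, which encodes the muscle coactivator myocardin.

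**Figure D2:**
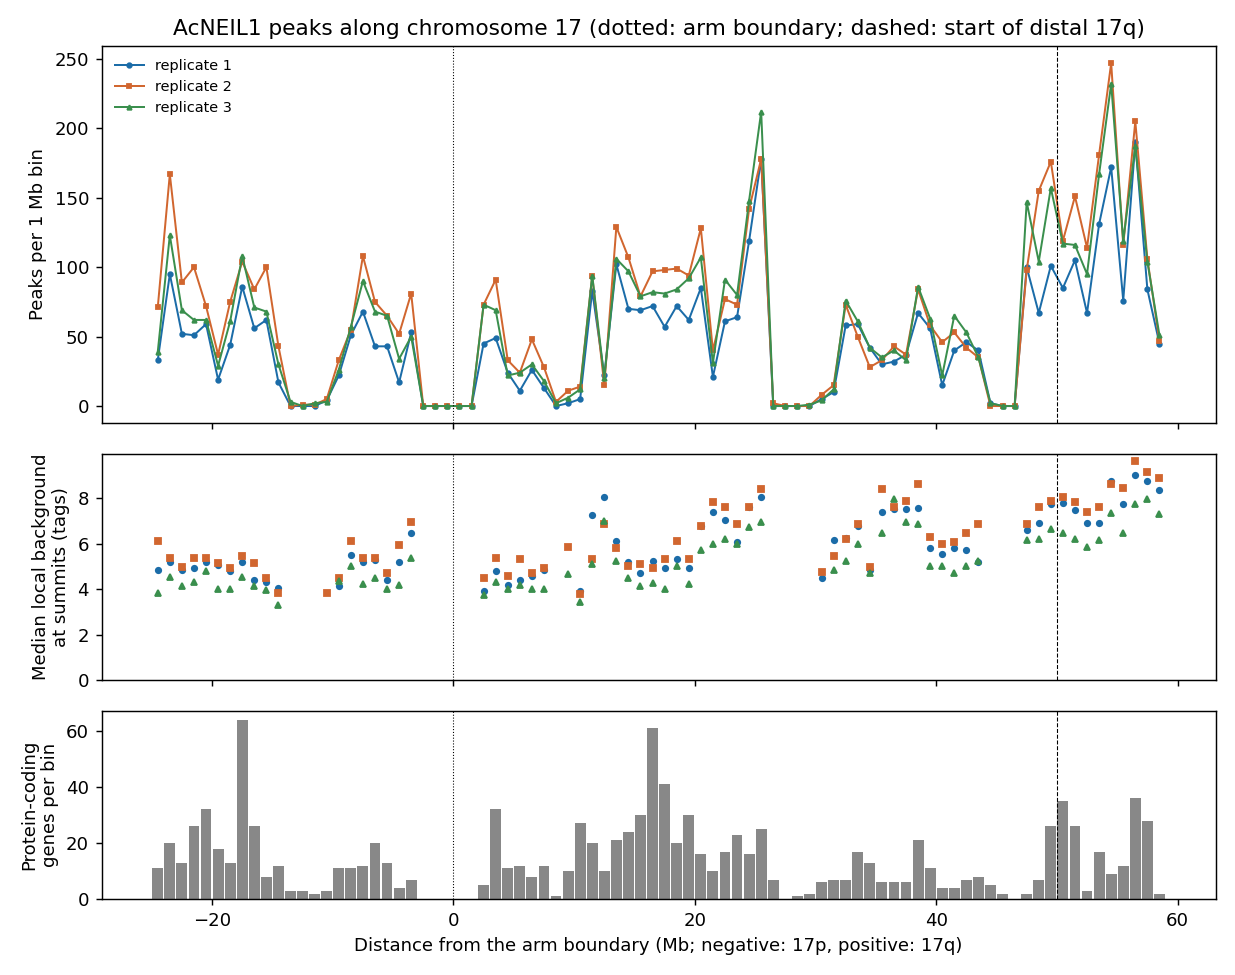
Peaks per 1 Mb bin (top), median local background at the summits in bins with at least 5 peaks of that replicate (middle) and protein-coding genes per bin (bottom), plotted by distance from the arm boundary, for replicates 1 to 3. Counts of the 3 replicates rise and fall together, are highest in distal 17q at up to 190, 247 and 232 peaks, and reach 0 in several stretches; the background is higher in the distal part of 17q.

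Long genes illustrated the contrast, as a description chosen after the values were seen. RBFOX3, 576 kb long, held 88, 132 and 122 peaks in replicates 1, 2 and 3, whereas CA10, 530 kb long and also expressed mainly in brain, held none. Next by mean number came SDK2, which encodes a synaptic adhesion protein, with 36, 98 and 57 peaks, and the zinc transporter gene SLC39A11 with 52, 48 and 67. NTN1, which encodes the axon guidance cue netrin, had 45, 65 and 42 peaks, and the Rap GTPase regulator gene RAP1GAP2 had 40, 60 and 47. Of 100 protein-coding genes of at least 100 kb, 44 (44%) had a peak in their body in all 3 replicates, against 24.8% of the 3350 such genes on all chromosomes and 24.2% of those on the other chromosomes. A further 36 (36%) had none in any replicate, against 54.1% on all chromosomes and 54.7% on the others. The 36 included NF1, the fatty acid synthesis gene ACACA, BPTF and KANSL1, which encode chromatin regulators, and MED13, CDK12 and TAOK1.

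The second comparison set the long arm against the short arm, split at 25 Mb within the centromere. The long arm, 17q, held 3074, 4097 and 3886 peaks in replicates 1, 2 and 3, and the short arm, 17p, held 875, 1418 and 1120. Per occupied bin 17q had 53.0, 70.6 and 67.0 peaks and 17p had 38.04, 61.7 and 48.7. The ratio was 1.30 ± 0.138 (SD, n = 3), above 1 in 3 of 3 replicates (exact sign-flip permutation p = 0.25, the smallest possible). Without the distal part of 17q it was 1.07 ± 0.117 and no longer above 1 in every replicate (exact permutation p = 0.5), so the arms then differed by less than the spread between replicates.

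The arm difference depended on the fold of the peaks admitted. With only peaks of −log10 q of 5 or more the ratio of 17q to 17p was 1.40 ± 0.175 (SD, n = 3). With only peaks of fold 4 or more, a setting added after seeing the data, the ratio turned to 0.823 ± 0.0275 (SD, n = 3, exact permutation p = 0.25), below 1 in 3 of 3 replicates. Such peaks made up 13.5%, 16.5% and 20.0% of the 17q peaks and 22.6%, 23.9% and 32.6% of the 17p peaks. The local background moved with the arm as well, at a median of 6.796, 7.18 and 5.9998 tags on 17q and 4.94, 5.34 and 4.28 tags on 17p.

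The third comparison was of distal 17q, from 75 Mb to the end, with the rest of 17q. Distal 17q held 955, 1286 and 1188 peaks in replicates 1, 2 and 3, which was 23.7% ± 0.433 of the chromosome's peaks (SD, n = 3) on 9 of its 81 occupied bins. Its density was 106.1, 142.9 and 132.0 peaks per occupied bin, against 43.2, 57.4 and 55.1 in the rest of 17q. The ratio was 2.45 ± 0.0471 (SD, n = 3), above 1 in 3 of 3 replicates (exact sign-flip permutation p = 0.25, the smallest possible). This was the steadiest of the 3 comparisons over the replicates, each of which gave a ratio between 2.40 and 2.49. Per protein-coding gene the ratio was 1.76 ± 0.0338, and with peaks of fold 4 or more it was 1.85 ± 0.307 (SD, n = 3 for each, exact permutation p = 0.25).

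Distal peaks were more numerous and had a higher local background, but not a higher fold. The median fold was 3.05, 3.08 and 3.23 in distal 17q, 3.27, 3.25 and 3.42 in the rest of 17q, and 3.45, 3.42 and 3.65 on 17p. The background ran the other way, at 8.14, 8.41 and 6.998 tags in distal 17q, 6.48, 6.64 and 5.68 tags in the rest of 17q and 4.94, 5.34 and 4.28 tags on 17p. The median pileup was 27, 29 and 24.8 tags in distal 17q, 23, 23 and 21.9 tags in the rest of 17q and 20, 21 and 19.1 tags on 17p.

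**Figure D3:**
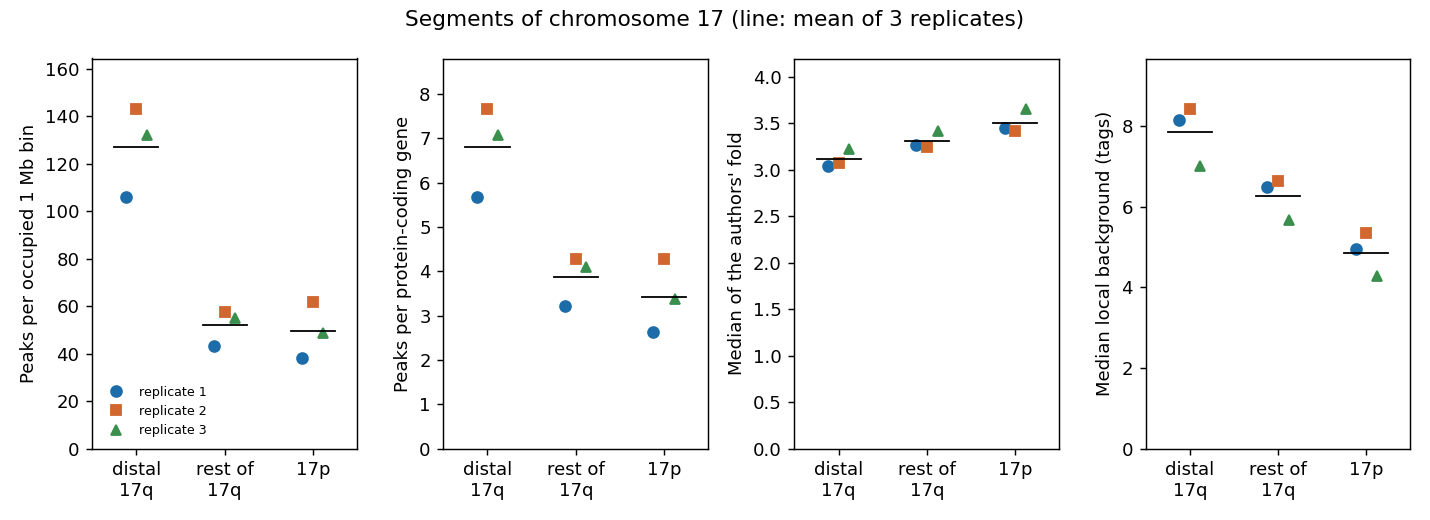
Peaks per occupied bin, peaks per protein-coding gene, median of the authors' fold and median local background in distal 17q, the rest of 17q and 17p; points are the 3 replicates and lines their means. Density and background are highest in distal 17q, at means of 127 peaks per bin and 7.85 tags, while the fold is lowest there, at a mean of 3.12.

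The background was uneven along the long arm. A cut at 45 Mb was placed after seeing the data. From it on, 17q had a median background of 7.55, 7.85 and 6.47 tags in replicates 1, 2 and 3. Before it, 17q had 5.05, 5.34 and 4.46 tags. Single bins departed from these medians on both sides. The bin from 37 to 38 Mb had 8.07, 6.87 and 6.999 tags. The bin from 59 to 60 Mb had 4.85, 4.96 and 4.73 tags. Whether the change at 45 Mb was a single step was not tested. HCT116 is known to carry extra material from 17q joined to another chromosome, and where on 17q it begins was not determined here. Copy number was not analysed here, and its part in the peak counts was not tested. Before the cut, 17q had 41.3, 59.8 and 52.2 peaks per occupied bin, against 38.04, 61.7 and 48.7 on 17p. The ratio was 1.04 ± 0.0623 (SD, n = 3, exact permutation p = 0.5). Per protein-coding gene the same ratio was 0.762 ± 0.0455, below 1 in 3 of 3 replicates (SD, n = 3, exact permutation p = 0.25). From the cut on, distal 17q still exceeded the part from 45 to 75 Mb. The ratio was 2.42 ± 0.125 in density and 1.22 ± 0.0628 per protein-coding gene. It was 1.16 ± 0.0292 in background (SD, n = 3 for each ratio, exact permutation p = 0.25). Chromosome 17 up to 45 Mb alone had 3.15 ± 0.0350 times the density of the other chromosomes (SD, n = 3, exact permutation p = 0.25). This part has 16.8 protein-coding genes per occupied bin, against 6.61 on the other chromosomes. Per protein-coding gene the difference was much smaller, with 2.35, 3.61 and 2.99 peaks in replicates 1, 2 and 3 against 1.92, 2.92 and 2.39.

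The fourth question was which regions the 3 libraries shared. Merging the lists gave 7445 regions on chromosome 17, of which 1248 (16.8%) were found by every replicate, 1505 by 2 and 4692 (63.0%) by 1. Over chromosomes 1 to 22 and X, 13.2% of the 85534 merged regions had a peak in all 3 replicates, and on the chromosomes other than 17 it was 12.9%. The share was 15.2% on chromosome 22, 14.9% on chromosome 19, 15.2% on chromosome 16 and 15.5% on chromosome 9. Chromosome 17 thus held 11.02% of the shared regions and 8.03% of the regions seen in a single replicate. With only peaks of −log10 q of 5 or more the count of shared regions fell to 459, with peaks of fold 4 or more to 161, and 207 peaks of replicate 1 overlapped a peak of both other lists by 50% in each direction. Without replicate 1, 2165 regions were shared by the other two lists. Regions seen in 1 replicate came mostly from replicate 2, with 2386, while 920 came from replicate 1 and 1386 from replicate 3.

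Shared regions made up 20.2% of the merged regions in distal 17q, 16.8% in the rest of 17q and 13.9% on 17p, and distal 17q held 322 of the 1248. The shared regions were placed against protein-coding, lncRNA and miRNA genes, on chromosome 17 alone. Of them, 707 lay inside a protein-coding gene without reaching its end and 136 included the end of one. A further 105 touched lncRNA or miRNA genes only, and 300 touched no gene of these types. The shared regions had a median width of 1892 bp, against 1692 bp on the other chromosomes, and 118 were at least 5000 bp wide. The widest, of 20759 bp (chr17:50576752-50597510), lay inside CACNA1G, with fold 5.17, 5.12 and 5.38 in replicates 1, 2 and 3 and 12, 8 and 13 separate peaks. Another 2 of the 10 widest lay in the same gene and 2 lay in RBFOX3.

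The strongest shared region by mean rank of fold covered an end of MYADML2 (chr17:81937927-81942981). Its strongest peak had fold 7.55, 8.73 and 6.68 in replicates 1, 2 and 3, averaging 7.66 ± 1.03 (SD, n = 3). A region of 16965 bp inside AATK (chr17:81120081-81137045), which also covers 4 miRNA genes, had fold 6.40, 7.99 and 7.86. A region across FAM187A and the end of GFAP (chr17:44901783-44911621), the gene of the astrocyte filament, had 5.81, 8.10 and 7.34. In these 3 regions replicate 2 was the highest.

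SLC2A4, which encodes the glucose transporter that insulin moves to the cell surface, and its neighbour YBX2, a germ cell gene, shared a region (chr17:7282544-7293111) with fold 5.72, 7.89 and 6.31 in replicates 1, 2 and 3. The end of SLC16A3, which encodes a lactate exporter of glycolytic cells, lay in a region (chr17:82216943-82220604) with 5.96, 8.20 and 5.84. The other 5 of the 10 strongest touched no protein-coding gene. One on 17p (chr17:16861473-16864802) lay 74279 bp from TNFRSF13B, a receptor gene of B cells, with fold 6.49, 5.83 and 7.88. Another on 17p (chr17:17011530-17014827) lay 27630 bp from MPRIP, with 6.34, 7.06 and 5.26. The last 3 lay in LOC105371430 on 17p, LOC105371822 near the dense bin at 50 Mb and TMEM105 in distal 17q, with mean folds of 5.95, 5.87 and 5.71. Of the 10 strongest regions 4 lay on 17p, 2 in the rest of 17q and 4 in distal 17q.

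**Figure D4:**
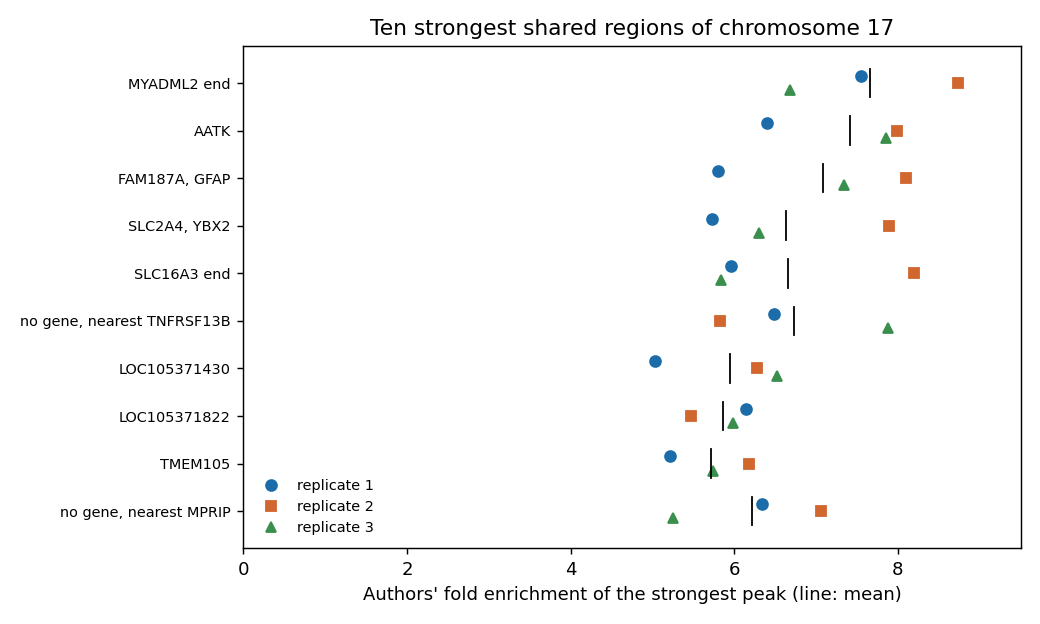
The authors' fold of the strongest peak in each of the 10 shared regions of chromosome 17 with the highest mean rank of fold, by replicate, with the mean as a line. Means run from 5.71 to 7.66, and no replicate is highest in every region.

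The fifth comparison was of gene ends, taken as the 1000 bp before and after each end of a protein-coding gene. On chromosome 17 such a peak was present in all 3 replicates at 209 of 1157 protein-coding genes (18.1%), against 9.03% of all 19821 protein-coding genes of the genome and 8.47% of those on the other chromosomes. The share was 16.4% on chromosome 19, 19.6% on chromosome 22 and 14.1% on chromosome 16. In distal 17q 45 of 168 genes (26.8%) had one, in the rest of 17q 112 of 657 (17.05%) and on 17p 52 of 332 (15.7%). By replicate the share on chromosome 17 was 25.3%, 33.4% and 29.0%, against 13.3%, 19.3% and 14.8% on the other chromosomes. No peak in any replicate was found at 679 genes (58.7%) of chromosome 17, against 75.5% of those on the other chromosomes. On chromosomes 22, 19 and 16 it was 52.6%, 60.3% and 62.1%. With a peak in at least 2 replicates the count was 328 genes (28.3%), against 15.2% of all genes. For a peak in all 3 replicates it was 90 (7.78%) with −log10 q of 5 or more and 37 (3.20%) with fold 4 or more. With windows of 5000 bp it was 492 (42.5%). The shares over all genes at these settings were not computed.

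The 20 genes with the highest mean rank of gene-end fold began with MYADML2, DNAAF19, FAM187A, SLC2A4, GFAP, SLC16A3 and YBX2, which share the regions given above. LHX1, a homeobox gene of kidney and head development, had fold 4.39, 6.10 and 6.26 in replicates 1, 2 and 3. TRARG1, which encodes a regulator of glucose transporter trafficking in fat and muscle, had 4.83, 5.90 and 5.15. SERPINF2, the gene of the liver-made plasmin inhibitor, had 4.19, 8.80 and 6.26, the widest spread among them. UNC13D, needed for release of cytotoxic granules, had 4.76, 6.22 and 4.29, and MPO, the neutrophil myeloperoxidase gene, had 5.05, 4.39 and 4.67. The set was completed by ALOX12B, TOM1L2, DLX4, PVALEF, BACC1, TBX2, WNT3 and SLC35G6, with mean folds between 4.74 and 5.92.

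Gene groups of the chromosome were compared with the 18.1% of its genes, and the 9.03% of all genes, that had a gene-end peak in all 3 replicates. The groups were listed with earlier results of these data known, and their counts are descriptions. Genes of developmental transcription factors had one in 7 of 14. LHX1 led, followed by DLX4 with fold 5.25, 6.77 and 4.55 and TBX2 with 4.38, 7.28 and 4.81 in replicates 1, 2 and 3, while SOX9 and FOXK2 had none in any replicate. The HOXB genes, a tandem row of homeobox genes that pattern the body axis, had one in 6 of 10. HOXB4 had fold 4.68, 3.39 and 4.28, HOXB2 3.81, 3.30 and 3.76 and HOXB1 3.57, 3.64 and 3.29, but HOXB5 and HOXB6 in the middle of the row had none. The 200 kb from HOXB1 to HOXB13 held 34, 41 and 42 peaks. With peaks of fold 4 or more, none of the 6 HOXB genes and 3 of the 7 transcription factor genes were left; among the other groups, only the leukocyte, Wnt and lipoxygenase groups kept a gene, 1 each.

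Genes typical of platelets, endothelium and leukocytes, cell types other than colon epithelium, had a gene-end peak in all 3 replicates in 7 of 15. Besides MPO these were led by CD7, a T cell surface gene, with fold 3.70, 4.41 and 5.40, CCR7, a chemokine receptor gene, with 3.58, 4.29 and 4.46, and CD79B, a B cell receptor gene, with 3.98, 4.98 and 3.33. The integrin gene ITGB3 had none and ITGA2B had 3.60 in replicate 1 and 3.65 in replicate 3. Striated muscle genes had one in 4 of 15, SGCA with fold 4.88, 5.91 and 3.44, CACNG1, TCAP and CACNA1G. The calcium channel gamma genes had one in 2 of 3, CACNG4 with 3.60, 4.28 and 4.46 and CACNG1 with 3.70, 4.40 and 4.10. Of the lipoxygenase genes 2 of 5 had one, ALOX12B with 4.57, 4.89 and 6.36 and its neighbour ALOXE3 with 4.78, 3.85 and 3.46.

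The acidic keratin cluster was split by its position. Of 27 type I keratin genes 6 (22.2%) had a gene-end peak in all 3 replicates, close to the share of the chromosome. KRT13 had fold 4.36, 3.88 and 6.18 in replicates 1, 2 and 3, KRT15 had 3.53, 5.20 and 4.94 and KRT17 had 3.92, 4.17 and 4.30, all genes of stratified epithelia. Other keratin genes of stratified epithelia differed from these. KRT10 and KRT12 had no gene-end peak in any replicate, and KRT14 had 4.20 in replicate 2 and 4.05 in replicate 3 alone. KRT20, the keratin of differentiated intestinal cells, had none, and KRT19, a keratin of simple epithelia, had one of 2.96 in replicate 2. The keratin span (chr17:40697991-41624575) held 44, 52 and 53 peaks, while the 322 kb of keratin-associated protein genes inside it (chr17:40993430-41315710) held none in any replicate. None of these 34 genes had a gene-end peak, for which the upper limit is 8.82% of such genes (3 counts, counting error only). The genes are neighbours in a single stretch and not independent, so this limit is too low.

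Several other tandem families had no gene-end peak in all 3 replicates, though their small sizes leave wide limits. These limits also treat neighbouring genes as independent. The olfactory receptor genes had none at 13 genes in any replicate, which allows up to 23.1%, and the 6 skeletal myosin heavy chain genes had 1, in replicate 1 alone, with a limit of 50% for a peak in all 3. The ABCA transporter genes (5) and the Schlafen genes (6), which act in antiviral defence, had none in any replicate, with limits of 60% and 50%. The CD300 genes (6), which encode leukocyte receptors, had none in all 3 (limit 50%), but 2 of them had one in 2 replicates and their span held 7, 16 and 14 peaks in replicates 1, 2 and 3. Of 16 CCL chemokine genes CCL3L3 alone had one, with 2.26, 3.29 and 2.32, and 6 of the others, from CCL2 to CCL1, lay in a stretch of 1.37 Mb without a peak in any replicate.

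Near-identical copies make some values uncertain, because reads from such genes cannot be placed with certainty. CCL3L3 is such a gene. Of the 11 TBC1D3 copies, 4 had a gene-end peak in every replicate; replicate 1 gave one at 7 copies, replicate 2 at 11 and replicate 3 at 5. The growth hormone and placental lactogen genes had one in 2 of 5, CSH2 with fold 3.80, 3.18 and 3.23 and GH2 with 3.08, 2.51 and 2.86.

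Genes of DNA repair had none in all 3 replicates at 15 genes, which allows up to 20.0%. RECQL5, which encodes a RecQ helicase, had fold 2.83 and 2.54 in replicates 2 and 3. LIG3, which seals single-strand breaks after base excision, had no gene-end peak and the nearest peak edge in any replicate lay 51.2 kb away. RPA1, which encodes a single-strand binding protein, and TOP2A, the topoisomerase of dividing cells, had none either, with nearest edges at 5.62 and 3.00 kb. Acetyltransferase and deacetylase genes had none in all 3 replicates at 5 genes (limit 60%). KAT2A, which encodes the acetyltransferase GCN5, had 4.12 and KAT7 had 3.37 in replicate 2. Proteasome genes (7) had none in any replicate (limit 42.9%). Of the ribosomal protein genes (6) RPL23A alone had peaks, of 2.91 in replicate 1 and 3.79 in replicate 3. Their limit for a peak in all 3 replicates is 50%. All these limits lie above the 18.1% of the chromosome's genes. With windows of 5000 bp, 3 acetyltransferase and deacetylase genes and 3 ribosomal protein genes had a peak in all 3 replicates. So did 1 DNA repair gene, but no proteasome gene.

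Wnt and intestinal genes had one in 2 of 10, both Wnt ligand genes: WNT3 with fold 5.32, 4.50 and 4.76 in replicates 1, 2 and 3 and WNT9B with 2.71, 2.80 and 3.14. The Wnt feedback inhibitor gene AXIN2 had none, and RNF43, which encodes a ubiquitin ligase that removes Wnt receptors, had 5.12 in replicate 1 alone. POLR2A, which encodes the catalytic subunit of polymerase II, and ERBB2 had none, with nearest peak edges 1.16 and 1.80 kb from a gene end. COL1A1 had 3.48, 3.79 and 2.87, and FASN, which encodes fatty acid synthase, had 3.95, 3.96 and 3.73, in all 3 replicates.

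**Figure D5:**
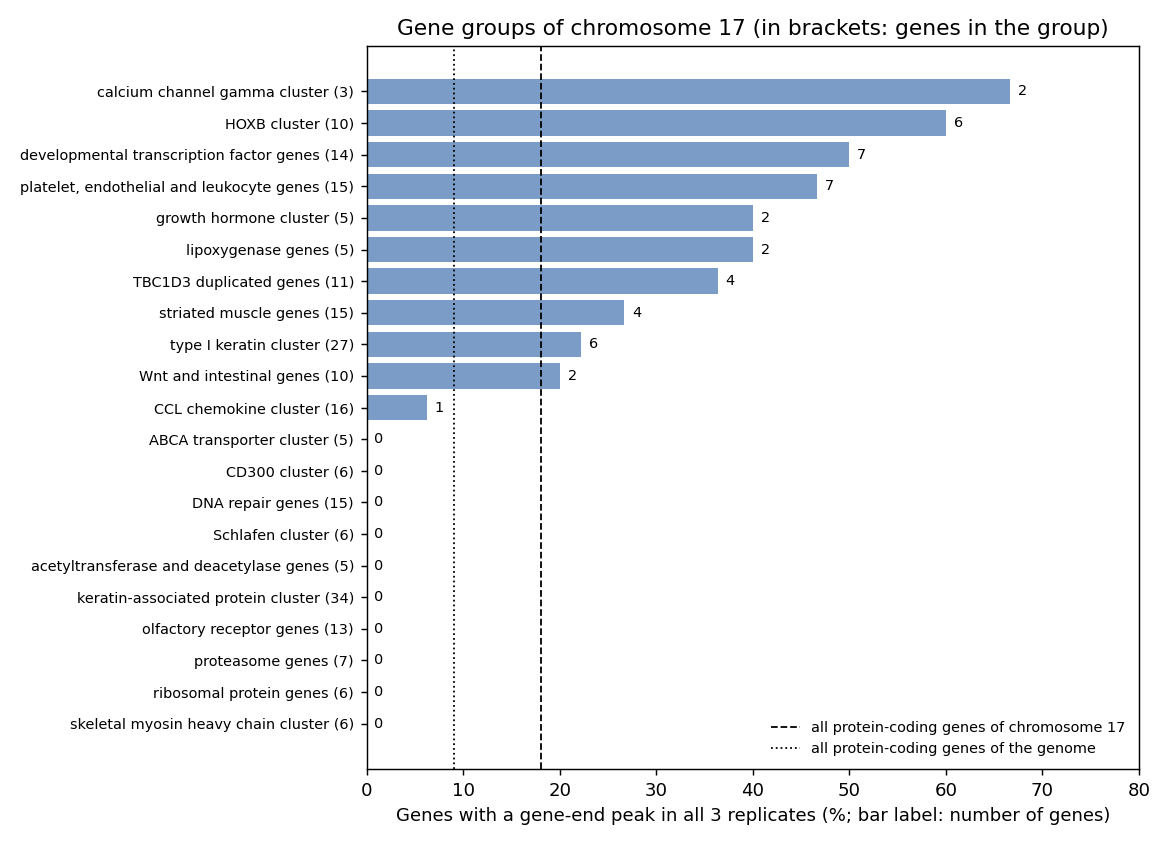
Share of the genes of each group on chromosome 17 with a gene-end peak in all 3 replicates, with the number of such genes beside each bar and the group size in brackets; dashed and dotted lines mark 18.1% of the chromosome's protein-coding genes and 9.03% of the genome's. Calcium channel gamma, HOXB and developmental transcription factor genes have the highest shares, and 10 of the 21 groups have none.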

How the data were processed

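Chromatin immunoprecipitation libraries of AcNEIL1 and inputs of HCT116 cells were grouped by their labels. Peaks were called per replicate with MACS 2.1.1.20160309 at a q-value cutoff of 0.05, per the file headers, in single-end mode with at most 2 tags per position. Per the submitters' processing notes, Trim Galore, cutadapt, Bowtie2 and bedtools were among the tools. The authors deposited the pileup signal at each summit, the fold enrichment as a ratio to the local background, and −log10 p and q values; coordinates are 1-based in hg38, per the file headers. Each peak's fold is the authors' own value. Depth and copy number can change how many peaks pass. Density ratios were tested by exact sign-flip permutation over replicates; stricter peaks, equal list lengths, other windows and boundaries, and leaving out each replicate were alternatives.

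From these, peaks were counted by summit in bins of 1 Mb, merged at an overlap of 1 bp and matched to RefSeq gene positions (GRCh38.p14), without exons. Entries listed after a step back in position (679 genes), taken to be on scaffolds or alternate loci, were dropped and 58419 genes remained. Python 3.11.15, pandas 2.3.3 and scipy 1.17.1 were used. Counting steps were tested on simulated data. Named items were the 10 shared regions and 20 genes ranking highest by mean fold rank, the 6 fullest and 6 emptiest gene-bearing bins, up to 4 members of each of the 21 lists and a fixed set, of which 2 genes are not reported here. The members and lists were chosen with earlier results of these data known.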

Additional observations from a re-analysis of the deposited data

Results flagged for a closer look

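Peaks were also called on an unlocalised scaffold assigned to chromosome 17, which none of the comparisons used. It held 9, 11 and 6 peaks in replicates 1, 2 and 3, with a median fold of 2.40, 2.59 and 2.35.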

How the results depend on the processing

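The 3 density ratios kept the direction of their mean under 32 of 33 alternatives. The exception was the ratio of 17q to 17p, which was 0.823 with peaks of fold 4 or more. The mean of that ratio was also close to 1 without distal 17q (1.07, lowest replicate 0.93) and with 17q up to 45 Mb (1.04, lowest replicate 0.971). Each main ratio was above 1 in every replicate, so leaving out a replicate could not turn its mean below 1. Leaving out each replicate gave 3.68 to 3.88 for chromosome 17 against the rest, 1.26 to 1.38 for 17q against 17p and 2.43 to 2.47 for distal 17q against the rest of 17q. The count of shared regions, 1248, was 459 with −log10 q of 5 or more, 161 with fold 4 or more, 207 by 50% reciprocal overlap with replicate 1 peaks and 1770 to 2165 when each replicate was left out, where fewer lists had to share a region, the highest without replicate 1. The count of genes with a gene-end peak in all replicates, 209, was 90 with −log10 q of 5 or more, 37 with fold 4 or more, 492 with windows of 5000 bp, 328 with a peak in at least 2 replicates and 227 to 274 without each replicate. The fold threshold and the 45 Mb cut were chosen after seeing the data. Where a stricter setting admits fewer peaks, the lower count follows from its construction; otherwise the cause was not tested. Among the 11 gene groups with any gene counted, 44 of 110 counts under alternatives moved by over 1.5 times. The 10 groups at 0 stayed at 0 in 89 of 100. A count of 0 could not change under settings that only remove peaks or narrow the windows, so many of these outcomes were fixed in advance. No paired analysis was possible because ChIP and input of the same number could be set against each other only inside the peak calls; the density ratios were already formed within each replicate. The lists hold no counts outside peaks, so a place without a peak is one where none passed at this depth.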

Other observations

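MicroRNA genes of chromosome 17 lay in shared regions at 20 of 110 (18.2%), against 4.55% of 1911 on all chromosomes and 3.72% of those on the other chromosomes. Some share a region, so these counts are not independent and no test was made. They included MIR142, a microRNA gene of blood cells, MIR152, MIR193A, the neighbours MIR195 and MIR497, and MIR338 with MIR657, MIR1250 and MIR3065 inside AATK.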
